A study of Mus musculus with 9 samples.

Results

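The integrated stress response is a shared relay for several kinds of cell stress. Kinases that sense misfolded protein in the endoplasmic reticulum, lack of amino acids, lack of heme or viral RNA phosphorylate the initiation factor eIF2, which slows most translation while the mRNA of the transcription factor ATF4 is translated more. ATF4 and its target CHOP, the protein of Ddit3, then switch on genes for amino acid supply, redox balance and the restart of translation, and under lasting stress genes that favour cell death. In liver the pathway is known to respond to toxicants, to endoplasmic reticulum stress and to a diet short of amino acids. RNA counts show neither the phosphorylation of eIF2 nor the amount of ATF4 protein.

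The genes described here were taken by symbol from a count table of rat liver and are 10 of its 37203 entries. They are the transcription factors Atf4, Atf5, Ddit3 and Atf3, the feedback genes Trib3 and Ppp1r15a, the growth brakes Sesn2 and Ddit4, and the enzymes Asns and Chac1. All 10 passed the filter on low counts, which left 14581 genes for testing. RNA came from liver of Wistar rats, described as male, in 3 groups of 3 libraries. Normal rats were given only olive oil. Fibrosis rats were given carbon tetrachloride (CCl4), which liver enzymes convert to a radical that injures hepatocytes, at 2 mL/kg of a 50% mixture with olive oil, on 3 days of each week over 8 weeks. In the third group CCl4 ran for the same 8 weeks, and schisandrin B, a lignan of Schisandra fruit, was added every day over the last 4. The study gave 25 or 50 mg/kg, and which dose applies to the 3 libraries is not given in the sources used here.

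Libraries held 10320299 to 16255167 counts. Levels are CPM, counts per 1e6 counts of a library, scaled by TMM factors, which correct for differences in library composition. The Y-linked genes Kdm5d and Eif2s3y had 0 counts in all 3 libraries labelled normal, and 73 to 193 counts in each of the 6 CCl4 libraries. The Y-linked gene Ddx3y did not follow them. It had 12, 12 and 32 counts in normal and 6 to 26 counts in CCl4 libraries and was not called. For every comparison with the normal libraries, a possible difference of sex and one of treatment therefore cannot be told apart. Schisandrin B and fibrosis libraries do not differ in this way. The summed level of 10 hepatocyte markers was 233900 to 267100 CPM in normal, 72880 to 116800 CPM in fibrosis and 194300 to 213600 CPM in schisandrin B libraries. Much of the sum was Alb, at 195900, 153100 and 166400 CPM in the normal libraries, so it rests on few genes. The sum was high in every library, as the labelled tissue implies. From normal to fibrosis 5 of the 10 hepatocyte markers fell and 0 rose. Among markers of other cells, 3 of 5 tested cholangiocyte genes and 2 of 4 tested neutrophil genes rose from normal to fibrosis with 0 falls, 2 of 9 macrophage genes rose and 1 fell, and 3 of 7 endothelial genes fell with 0 rises (1 fell and 2 rose with library totals). Of 5 T, NK and B cell genes 4 fell and 0 rose, and of 11 stellate cell and fibroblast genes 4 rose and 1 fell. With schisandrin B against fibrosis 4 of 4 neutrophil, 2 of 5 cholangiocyte and 1 of 9 macrophage genes fell with 0 rises. In the same comparison 4 of 10 hepatocyte, 2 of 5 T, NK and B cell and 2 of 7 endothelial genes rose with 0 falls (with library totals 2 hepatocyte and 3 endothelial genes fell, and 0 endothelial genes rose), and 5 stellate genes rose and 3 fell. The summed neutrophil markers reached 5.68 to 10.3 CPM in normal and 17.4 to 23.3 CPM in fibrosis libraries, with 1 of 7 at 0 in all fibrosis libraries, and the summed cholangiocyte markers 20.1 to 25.0 and 52.3 to 64.4 CPM. With schisandrin B these sums were 2.37 to 6.04 and 13.2 to 29.5 CPM. Over all tested genes 25.4% rose and 22.9% fell in fibrosis against normal, and 22.5% rose and 24.8% fell in schisandrin B against fibrosis. The marker calls are few and moved with single libraries: macrophage falls numbered 4 without fibrosis replicate 1, neutrophil rises 1 without normal replicate 1 or 2, and stellate rises with schisandrin B 2 without fibrosis replicate 1 or 2. The falls of T, NK and B cell genes numbered 2 without normal replicate 1 or fibrosis replicate 2 or 3, and their rises with schisandrin B 0 without fibrosis replicate 3 or schisandrin B replicate 2. Their part in the results below was not tested. In whole liver, fewer cells of a type and less RNA per cell cannot be told apart.

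ATF4 binds DNA as a dimer with C/EBP proteins, and the core of the element they share reads TGATGCAA, or TTGCATCA on the other strand. The cAMP response element TGACGTCA is bound by ATF and CREB family proteins. Promoter sequence was at hand for mouse, not for rat, so the stretches below are those of the mouse genes of the same symbol (RefSeq, build GRCm38.p6) and may differ from the rat sequence. They are shown because these motifs are the letters that the pathway is known to read, and 10 of 10 symbols matched. The windows run from 250 bases before to 50 bases after the start of the transcript. On either strand, TGATGCAA was found in 2 of the 10 genes, Atf3 and Chac1, and in 0.895% of 32851 promoter windows. With any base at the sixth position (TGATGNAA, which includes the first motif) the matches were Asns, Atf3, Chac1 and Trib3, and 3.97% of all windows held one. The Trib3 match lay after the start and is not printed. TGACGTCA was found in Ppp1r15a and in 1.79% of all windows. The shares are of windows, and the 10 genes had 11 of them. In the order given, 2, 4 and 1 of these 11 windows held the motif. Each line gives the strand of the gene, 5′ to 3′, with the match in capitals. A match is a description of the letters, and the absence of one in the other genes says only that the letters are not in this window.
Atf3, chr1:191183410-191183469, minus strand, match 110 bases before the start: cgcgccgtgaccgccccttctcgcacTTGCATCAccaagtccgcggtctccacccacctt
Chac1, chr2:119351023-119351082, plus strand, match 193 bases before the start: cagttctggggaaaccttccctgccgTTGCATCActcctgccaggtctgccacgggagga
Asns, chr6:7693210-7693258, minus strand, match 23 bases before the start: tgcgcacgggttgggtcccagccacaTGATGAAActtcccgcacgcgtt
Ppp1r15a, chr7:45526269-45526306, minus strand, match 12 bases before the start: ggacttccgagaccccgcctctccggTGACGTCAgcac

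Most of the pathway was high in fibrosis libraries and low in both other groups. Against the normal libraries 8 of the 10 genes rose, Atf5 fell and Ddit4 was not called, where a call is an edgeR adjusted p under 0.05. Over all tested genes 48.3% were called in this comparison, 25.4% higher and 22.9% lower. The median change of the 10 genes was 2.81 on the log2 scale, beside 0.03 for all tested genes. The libraries did not overlap in 8 of 10 genes, 8 higher and 0 lower in fibrosis. Over all tested genes that held for 55.8%, 29.0% higher and 26.8% lower. With schisandrin B against fibrosis 7 of the 10 fell, Atf5 rose, and Chac1 and Ddit4 were not called. Over all tested genes 47.3% were called here, 22.5% higher and 24.8% lower. The median change was -2.85 for the 10 genes and -0.025 for all tested genes, and both comparisons use the same fibrosis libraries. The libraries did not overlap in 8 genes, 1 higher and 7 lower, beside 56.8% of all tested genes, 27.8% higher and 29.0% lower. Between schisandrin B and normal libraries edgeR called 0 of the 10, as did DESeq2 and limma voom, and 1 gene, Atf4, had an unadjusted p under 0.05. In this comparison 10.5% of all tested genes were called, 5.25% higher and 5.25% lower.

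Scaling matters for the weaker members. With library totals in place of TMM factors the median of all genes moved by 0.43 in fibrosis against normal, by -0.27 in schisandrin B against fibrosis and by 0.16 in schisandrin B against normal on the log2 scale. Upper-quartile scaling moved the first by -0.11 and the second by 0.13. Under library totals the share of calls that were higher went from 52.7% to 74.7%, from 47.6% to 32.6% and from 50.0% to 70.3% in the 3 comparisons. The members called were then 9 higher and 0 lower against normal, with Ddit4 gained and Atf5 lost, and 0 higher and 8 lower in schisandrin B against fibrosis, with Chac1 gained and Atf5 lost.

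**Figure D1:**
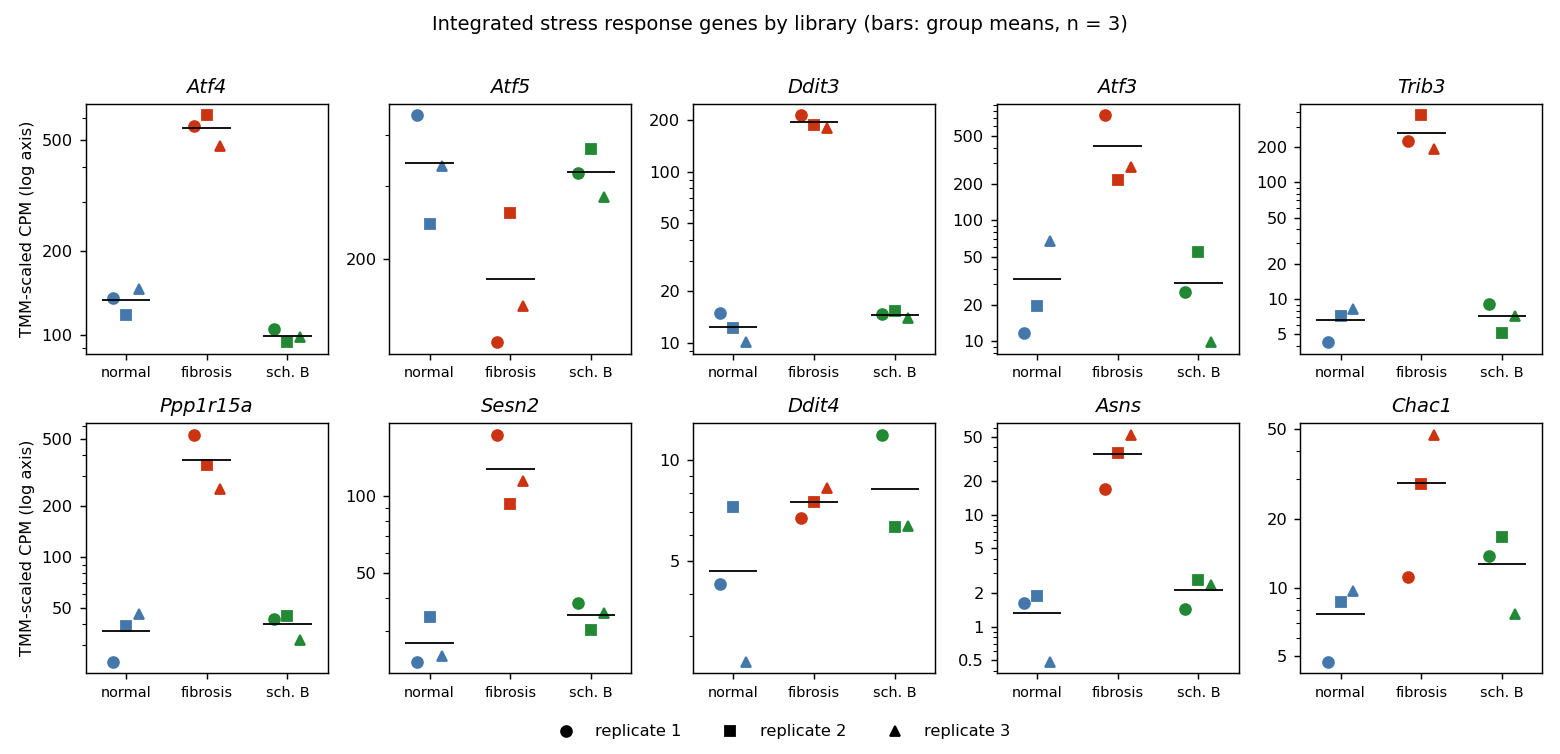
TMM-scaled CPM of each of the 10 genes in each library (log axis, a scale of its own for every gene), with points shaped by replicate and bars at the group means of 3 libraries. The fibrosis libraries lie above all others for Atf4, Ddit3, Atf3, Trib3, Ppp1r15a, Sesn2 and Asns, while Atf5 is lower in mean with overlap, Ddit4 overlaps across groups and Chac1 has 1 fibrosis library among the schisandrin B values.

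The transcription factors did not move as a block. Atf4 encodes the central activator of the pathway. Its level was 136, 118 and 146 CPM in the normal libraries, 560.1, 614 and 475 CPM in the fibrosis libraries, and 106, 94.6 and 98.4 CPM with schisandrin B. Every fibrosis library stood above all others, and every schisandrin B library stood below all normal ones. Atf4 rose by 2.04 ± 0.19 (SE) in fibrosis against normal (edgeR adjusted p 1.02e-05) and fell by 2.47 ± 0.19 in schisandrin B against fibrosis (edgeR adjusted p 6.00e-06). Against normal it was -0.42 ± 0.18 with schisandrin B, with an interval of -0.82 to -0.03 and an edgeR adjusted p of 0.155. Atf4 was the 1 member whose libraries did not overlap here, beside 38.7% of all tested genes, 19.9% higher and 18.8% lower.

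Ddit3 encodes CHOP, which favours cell death under lasting stress. Of the 10 genes it varied least among the fibrosis libraries. It stood at 15.0, 12.2 and 10.1 CPM in normal, 215, 188 and 181 CPM in fibrosis and 14.7, 15.4 and 14.0 CPM in schisandrin B libraries. The highest fibrosis library exceeded the lowest by 1.19 times, and the groups of low libraries overlapped each other. The rise was 3.97 ± 0.20 on the log2 scale (edgeR adjusted p 3.59e-07) and the fall with schisandrin B was -3.73 ± 0.19 (edgeR adjusted p 1.71e-06). Between schisandrin B and normal the difference was 0.24, with an interval of -0.16 to 0.63.

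Atf3 encodes a factor induced by many kinds of stress, and its levels varied widely within each group. Normal libraries held 11.7, 19.5 and 67.3 CPM, fibrosis libraries 745, 216 and 275 CPM, and schisandrin B libraries 25.8, 55.0 and 9.85 CPM. The fibrosis libraries stood above the rest without overlap, but the highest library exceeded the lowest by 5.77 times in normal, 3.46 times in fibrosis and 5.58 times in schisandrin B libraries. Atf3 rose by 3.65 ± 0.88 (edgeR adjusted p 0.00821) and fell by 3.76 ± 0.88 with schisandrin B (edgeR adjusted p 0.00738). Single libraries moved these values. Without fibrosis replicate 1 the rise was 2.90 and no longer called (edgeR adjusted p 0.0503), and without normal replicate 3 it was 4.72 (0.00224). The change with schisandrin B was -3.01 without fibrosis replicate 1 (0.0466) and -4.53 without schisandrin B replicate 2 (0.00713).

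Atf5, a close relative of Atf4 that is also translated more when eIF2 is phosphorylated, went the other way at the mRNA level. It stood at 446, 244 and 337 CPM in normal, 126, 259 and 154 CPM in fibrosis and 322, 368 and 282 CPM in schisandrin B libraries. Fibrosis replicate 2 lay above the lowest normal library, so those groups overlapped, while all schisandrin B libraries lay above all fibrosis libraries. Atf5 fell by 0.93 ± 0.29 in fibrosis (edgeR adjusted p 0.0211) and rose by 0.85 ± 0.29 with schisandrin B (edgeR adjusted p 0.0317). Neither call held throughout. Library totals ended both, with edgeR adjusted p of 0.171 and 0.116. The fall was not called without normal replicate 1 (0.0965), normal replicate 3 (0.0503) or fibrosis replicate 3 (0.0617). The rise was not called without fibrosis replicate 1 (0.0764), fibrosis replicate 3 (0.0867), schisandrin B replicate 1 (0.0565) or schisandrin B replicate 2 (0.101). The direction was the same in all of these.

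**Figure D2:**
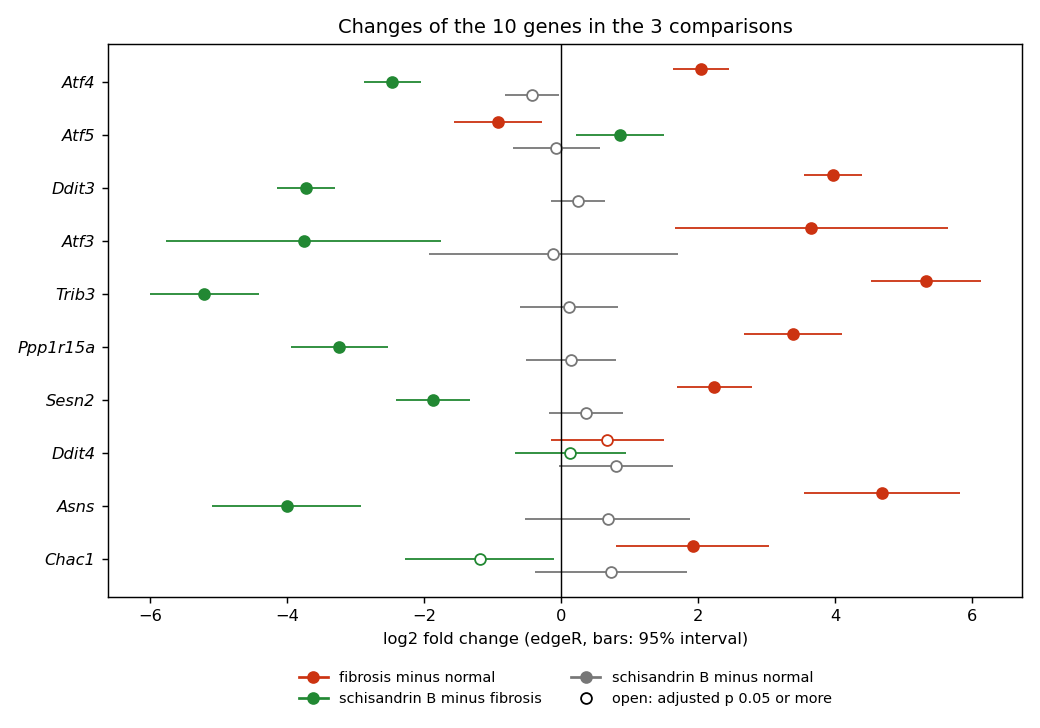
Log2 fold change of each gene in the 3 comparisons (edgeR), with bars for the 95% interval, filled points for an adjusted p under 0.05 and open points otherwise. Trib3 has the largest values, 5.32 up in fibrosis and -5.21 with schisandrin B, and Atf5 points against the other called members in both comparisons.

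Both feedback genes rose in fibrosis and fell with schisandrin B. Trib3 encodes a pseudokinase that CHOP and ATF4 induce and that restrains ATF4. It was at 4.29, 7.17 and 8.33 CPM in normal, 227, 376 and 192 CPM in fibrosis and 9.16, 5.17 and 7.20 CPM in schisandrin B libraries. It had the largest change of the 10 in both comparisons, 5.32 ± 0.37 in fibrosis, rank 105 of 14581 genes ordered from the highest value, and -5.21 ± 0.36 with schisandrin B, rank 60 from the lowest. The edgeR adjusted p were 2.49e-06 and 4.83e-06. With schisandrin B against normal Trib3 was 0.11 higher, with an interval of -0.61 to 0.83.

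Ppp1r15a encodes GADD34, which brings a phosphatase to eIF2 and so ends the response. It measured 23.8, 38.7 and 46.0 CPM in normal, 531, 349 and 253 CPM in fibrosis and 43.0, 44.6 and 32.3 CPM in schisandrin B libraries. The fibrosis libraries again stood clear of both other groups, which overlapped. Ppp1r15a rose by 3.38 ± 0.33 (edgeR adjusted p 1.44e-05) and fell by 3.24 ± 0.32 with schisandrin B (2.27e-05). Its constitutive counterpart Ppp1r15b moved in the opposite direction, with a fall of 1.20 ± 0.20 in fibrosis (0.000510) and a rise of 1.05 ± 0.20 with schisandrin B (0.00129).

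The growth brakes split. Sesn2 encodes a leucine sensor that holds back mTORC1, the kinase complex that drives growth. It was at 22.7, 34.0 and 23.9 CPM in normal, 173, 93.0 and 114 CPM in fibrosis and 38.5, 30.2 and 35.0 CPM in schisandrin B libraries. It rose by 2.23 ± 0.25 (edgeR adjusted p 3.68e-05) and fell by 1.87 ± 0.25 with schisandrin B (0.000127). The other sestrins differed from it. Sesn1 fell by 2.12 ± 0.28 in fibrosis (0.000108) and was 0.70 higher with schisandrin B without a call (0.0538). With schisandrin B it was still called below normal, by 1.41 ± 0.27 (0.00804). Sesn3 fell by 0.75 (0.0316) and rose by 1.11 (0.00434).

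Ddit4 encodes REDD1, which also holds back mTORC1 and is known to respond to hypoxia and glucocorticoids besides ATF4. Its levels were low in all groups, 4.29, 7.24 and 2.51 CPM in normal, 6.71, 7.48 and 8.27 CPM in fibrosis and 11.9, 6.33 and 6.38 CPM in schisandrin B libraries. The groups overlapped in all 3 comparisons, with 31 to 141 counts per library behind the values. The changes were 0.67 in fibrosis (interval -0.15 to 1.50, edgeR adjusted p 0.162) and 0.13 with schisandrin B against fibrosis (interval -0.68 to 0.94, 0.80). The first was called without normal replicate 2 (1.14, edgeR adjusted p 0.0339) and with library totals (1.10, 0.0436). The second was -0.14 with library totals and -0.19 without schisandrin B replicate 1. Its paralog Ddit4l had 1 count over the normal and 126 over the fibrosis libraries, 115 times as many after scaling, where counting error alone spans 20.2 to 4564 times at 95%. In schisandrin B libraries 3 counts were left, and fibrosis exceeded them by 34.6 times (interval 11.6 to 170).

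The enzymes rose in fibrosis with a spread of their own. Asns encodes asparagine synthetase, a classic ATF4 target. It was at 1.63, 1.89 and 0.485 CPM in normal, 17.0, 35.5 and 52.1 CPM in fibrosis and 1.43, 2.62 and 2.37 CPM in schisandrin B libraries, with 6 to 36 counts in each library outside the fibrosis group. Fibrosis libraries stood apart from all others. Asns rose by 4.68 ± 0.51 (edgeR adjusted p 4.49e-05) and fell by 4.01 ± 0.49 with schisandrin B (0.000105).

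Chac1 encodes an enzyme that breaks down glutathione and is a known target of ATF4. It was at 4.72, 8.66 and 9.62 CPM in normal, 11.2, 28.6 and 47.2 CPM in fibrosis and 13.7, 16.7 and 7.66 CPM in schisandrin B libraries. All fibrosis libraries lay above all normal ones, but fibrosis replicate 1 lay below schisandrin B replicates 1 and 2. Chac1 rose by 1.92 ± 0.50 (edgeR adjusted p 0.00991). With schisandrin B it was -1.19 ± 0.49, with an interval of -2.28 to -0.11 and no call (edgeR adjusted p 0.0676). The call was made without fibrosis replicate 1 (-1.58, 0.00615), with DESeq2 (-1.16, adjusted p 0.0299) and with library totals (-1.53, 0.0373). Its relative Chac2, a slower form of the enzyme, fell by 1.43 ± 0.26 in fibrosis (0.000881) and rose by 2.05 ± 0.26 with schisandrin B (9.36e-05).

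Ratios of 2 genes in the same library do not depend on the scaling, and they show which members moved more than Atf4 itself. All 9 ratios share the Atf4 count, so they are not independent. From normal to fibrosis the log2 ratio to Atf4 went up by 3.25 for Trib3, 2.54 for Asns, 1.93 for Ddit3 and 1.33 for Ppp1r15a, each without overlap of the libraries. Over all tested genes 2.15% stood higher in fibrosis in this way. For Atf3 it went up by 1.78, for Sesn2 by 0.17, and for Chac1 it went down by 0.31, with overlap in all 3. Atf5 lay lower relative to Atf4 by 2.99 without overlap, as did 85.2% of all tested genes. Ddit4 lay lower by 1.26, and its libraries were apart with a prior count of 2 but overlapped with one of 0.5, so the groups are not taken as separate.

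With schisandrin B against fibrosis the ratios of Trib3, Asns, Ddit3 and Ppp1r15a went down by 2.69, 1.36, 1.26 and 0.73, again without overlap, where 0.94% of tested genes did so. These 4 genes thus fell more than Atf4 did, while the ratios of Atf5, Ddit4 and Sesn2 went up by 3.37, 2.53 and 0.63 without overlap, as for 92.0% of tested genes. For Asns the groups were barely apart, with -5.03 in fibrosis replicate 1 and -5.10 in schisandrin B replicate 2, where Asns had 36 counts. The ratio of Atf3 went down by 1.40 and that of Chac1 up by 1.43, both with overlap. Between schisandrin B and normal libraries 5 of the 9 ratios stood higher without overlap, those of Ddit3, Ppp1r15a, Sesn2, Ddit4 and Chac1, by 0.60 to 1.27. That was also the case for 43.2% of all tested genes. None of the 9 stood lower without overlap, where 5.56% of all tested genes did.

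**Figure D3:**
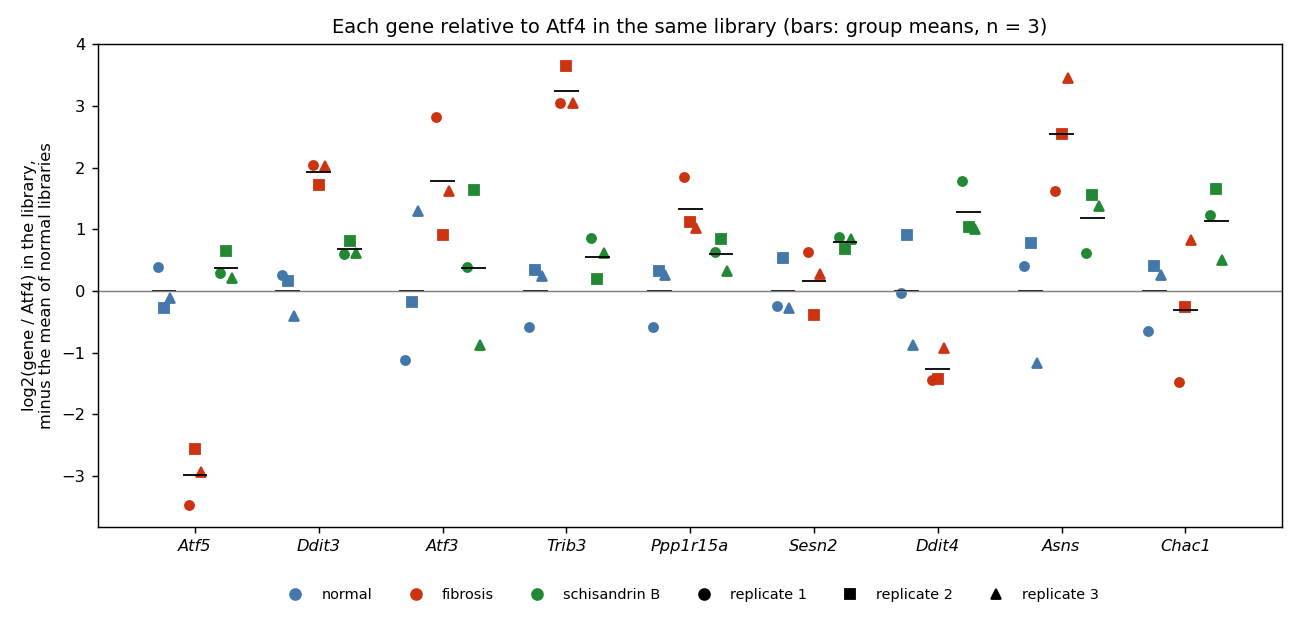
Log2 ratio of each gene to Atf4 in the same library (prior count 2), set against the mean of the normal libraries, with bars at group means of 3 libraries. Trib3, Asns, Ddit3 and Ppp1r15a stand above both other groups in fibrosis libraries, and Atf5 stands far below.

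The 3 fibrosis libraries did not rank the members alike. Fibrosis replicate 1 was highest for Atf3, Ppp1r15a, Sesn2 and Ddit3, by 2.71, 2.10, 1.51 and 1.19 times over fibrosis replicate 3. It was lowest for Asns, Chac1, Atf5 and Ddit4, where replicate 3 was 3.07, 4.23, 1.22 and 1.23 times its level. Atf4, Trib3 and Atf5 were highest in replicate 2. Fibrosis replicate 1 was the highest library for 40.8% of all tested genes, replicate 2 for 32.1% and replicate 3 for 27.1%. A ratio of highest to lowest fibrosis library above 3, as seen for Atf3, Asns and Chac1, occurred in 7.76% of the 9648 tested genes with a mean of at least 5 CPM in this group, whose median ratio was 1.53. Other genes of the pathway also differed in which fibrosis library was highest. Fgf21, a hormone that ATF4 induces in liver, was at 529 CPM in fibrosis replicate 1, 132 in replicate 2 and 54.6 in replicate 3, and Nupr1, a small stress cofactor, at 1290, 194 and 463 CPM. Of the C/EBP and bZIP partners of ATF4 and CHOP 9 of 11 were highest in replicate 1, as were 6 of 8 p53 responders. So were 6 of 8 amino acid transporter genes and 6 of 8 immediate early genes, but only 2 of 12 tRNA synthetase genes. Of the tRNA synthetase genes 7 were highest in replicate 2. Replicate 3 was highest for 8 of 17 genes of the ATF6 and XBP1 arm and 6 of 13 serine, proline and one-carbon genes. Among cell markers replicate 1 was highest for 8 of 9 macrophage, 6 of 7 endothelial and 4 of 5 T, NK and B cell genes. Replicate 1 was also highest for 3 of 10 hepatocyte, 4 of 11 stellate, 1 of 5 cholangiocyte and 0 of 4 neutrophil genes. The summed macrophage markers ranged from 843 to 1759 CPM over the fibrosis libraries. The part of any of these cell types in the spread was not tested.

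**Figure D4:**
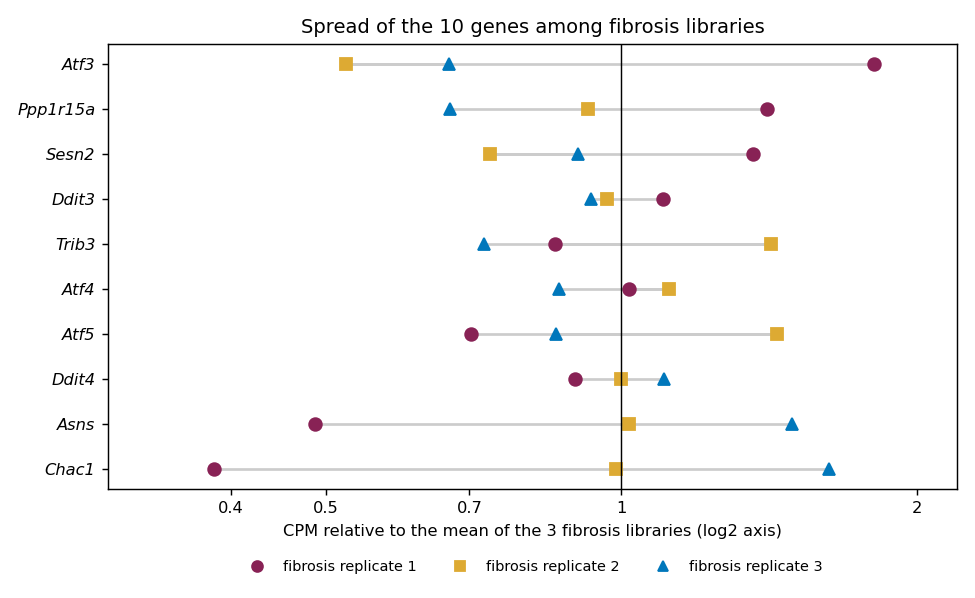
CPM of each gene in the 3 fibrosis libraries, divided by their mean (log2 axis), ordered by the ratio of replicate 1 to replicate 3. Replicate 1 is the highest for Atf3, Ppp1r15a, Sesn2 and Ddit3 and the lowest for Asns, Chac1, Atf5 and Ddit4. Ddit3, Ddit4 and Atf4 stay close to their means.

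Around the 10 genes, the machinery upstream changed in both directions. The list counts here and below are to be read beside the shares over all tested genes. These were 25.4% higher and 22.9% lower in fibrosis against normal, and 22.5% higher and 24.8% lower in schisandrin B against fibrosis. Of 13 genes for eIF2 kinases, eIF2, its exchange factor eIF2B and Ppp1r15b, 7 rose and 3 fell in fibrosis against normal (with library totals 1 fell), with a median of 0.61. With schisandrin B against fibrosis 1 rose and 6 fell, with a median of -0.33. Without schisandrin B replicate 1 or 2, 3 fell. Eif2ak3, which encodes PERK, the kinase of the endoplasmic reticulum, was at 23.5, 28.3 and 32.5 CPM in normal, 81.1, 46.0 and 49.4 CPM in fibrosis and 25.0, 21.8 and 19.0 CPM in schisandrin B libraries. It rose by 1.06 ± 0.23 (edgeR adjusted p 0.00296) and fell by 1.42 ± 0.24 (0.000548). Eif2ak4, which encodes the amino acid sensor GCN2, fell by 0.77 ± 0.21 in fibrosis (0.00971) and was -0.28 ± 0.21 with schisandrin B against fibrosis, without a call (0.297). With schisandrin B it was called lower than normal, by 1.05 ± 0.21 (0.00969), as 1 lower and 3 higher genes of the 13. The higher ones, Eif2s2, Eif2b2 and Eif2b1, were called in 12, 11 and 6 of 17 alternatives. Over all tested genes 5.25% were called higher and 5.25% lower there. Eif2s1, the alpha subunit of eIF2 that the kinases phosphorylate, rose by 2.18 ± 0.17 (4.84e-06) and fell by 1.79 ± 0.17 (1.63e-05), and Eif2b3 rose by 2.71 and fell by 2.64.

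C/EBP and related factors, some of which pair with ATF4 or CHOP, were tested in 11 genes. In fibrosis 5 rose and 1 fell, and with schisandrin B 5 fell and 0 rose (3 rose without fibrosis replicate 1), with medians of 0.08 and -0.17. Over all tested genes 48.3% and 47.3% were called in these comparisons, so the calls of both directions together lay near the general share. By direction the shares were 25.4% higher and 22.9% lower, then 22.5% higher and 24.8% lower. Maff changed most, by 7.07 ± 0.98 and -5.68 ± 0.91 (edgeR adjusted p 0.000395 and 0.000956), with 939, 145 and 112 CPM in the fibrosis libraries. Nupr1 rose by 4.11 ± 0.60 and fell by 5.51 ± 0.64, and Cebpd rose by 1.95 ± 0.25 and fell by 2.15 ± 0.26, all called. Cebpb and Cebpg rose by 1.26 ± 0.31 (edgeR adjusted p 0.00625) and 0.92 ± 0.16 (0.000564) and fell by 1.85 ± 0.32 (0.000697) and 0.89 ± 0.16 (0.000765). Cebpa, a factor of hepatocyte identity, fell by 0.90 ± 0.30 in fibrosis (0.0282), and this fall was not called with library totals, in the fit on only these 2 groups or without any 1 of normal replicates 2 and 3 and fibrosis replicates 2 and 3.

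The genes that ATF4 serves downstream were read from lists of its known targets. Of 12 cytosolic tRNA synthetase genes, which charge tRNA with amino acids, 12 rose in fibrosis and 12 fell with schisandrin B, with medians of 1.90 and -1.90. Sars rose by 2.86 ± 0.21 and Gars by 2.41 ± 0.16 (edgeR adjusted p 3.49e-06 and 2.18e-06), and Eprs, the smallest change, rose by 0.64 ± 0.20 (0.0205). Against normal 0 of the 12 were called with schisandrin B by edgeR.

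Of 8 tested amino acid transporter genes 8 rose and 0 fell in fibrosis, and with schisandrin B 6 fell and 0 rose. Slc7a1, an importer of arginine and lysine, was at 1.12, 0.879 and 0.809 CPM in normal and 75.9, 54.7 and 54.7 CPM in fibrosis libraries. With schisandrin B it was back to 1.34, 0.801 and 1.19 CPM, a fall of 5.81 ± 0.26 (edgeR adjusted p 7.42e-07). Slc3a2, the shared heavy chain of several transporters, rose by 2.84 and fell by 2.51, and both changes were called. Slc7a11 was at 27.7, 28.9 and 34.2 CPM in fibrosis libraries and had 0 counts in every normal and schisandrin B library. Its rise and its fall were each called in 17 of 17 alternatives. Against normal 1 of the 8 was called higher and 2 lower with schisandrin B, beside 5.25% and 5.25% of all tested genes. Slc7a5 was at 28.1, 27.2 and 32.5 CPM in normal and 6.01, 11.1 and 7.11 CPM in schisandrin B libraries. It was called lower in 17 of 17 alternatives, and Slc38a2 was called higher in 12 of 17.

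Of 13 genes for serine, proline and one-carbon enzymes 8 rose and 4 fell in fibrosis, and 8 fell and 4 rose with schisandrin B (5 fell under the filter of 5 CPM, which leaves fewer genes). Those that rose included Psat1 and Psph of serine synthesis and Mthfd2 of the mitochondrial folate cycle, by 2.86 ± 0.25, 2.45 ± 0.32 and 4.10 ± 0.42 (edgeR adjusted p 8.80e-06, 9.75e-05 and 1.91e-05). Psat1 was at 24.3, 23.2 and 24.2 CPM in fibrosis and 1.72, 1.75 and 0.821 CPM in schisandrin B libraries, below the 3.07 to 3.45 CPM of normal ones, and it was called lower than normal (-1.19 ± 0.28, 0.0209). That call was lost without schisandrin B replicate 3 (0.0683) and without any 1 of the normal libraries (0.0587 at most). Cth, which makes cysteine, fell by 3.55 ± 0.33 in fibrosis (1.18e-05) and rose by 2.64 ± 0.32 with schisandrin B (6.92e-05).

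**Figure D5:**
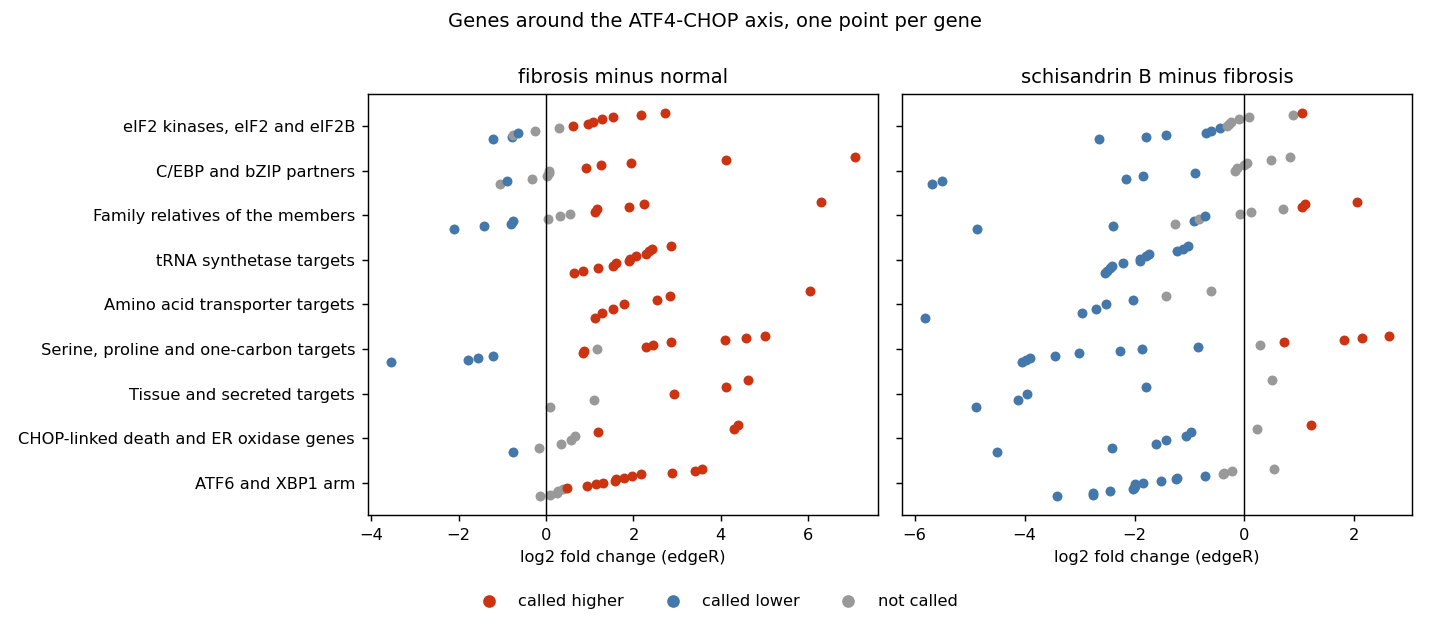
Log2 fold change of single genes of 9 lists around the ATF4-CHOP axis, with fibrosis against normal on the left and schisandrin B against fibrosis on the right, coloured by call. The tRNA synthetase genes lie on the right of 0 in fibrosis and on the left with schisandrin B, while the upstream, partner and one-carbon lists lie on both sides. Slc7a11, which had counts only in the fibrosis libraries, is not drawn because the other group of each comparison had 0.

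Genes linked to CHOP and cell death were mixed. Of 8 tested, 3 rose and 1 fell in fibrosis (6 and 0 with library totals), and 1 rose and 6 fell with schisandrin B. Gadd45a, a growth arrest gene, rose by 4.40 ± 0.51 (edgeR adjusted p 7.56e-05) and fell by 4.51 ± 0.51 (7.98e-05). Tnfrsf10b, the death receptor that CHOP is known to induce, fell by 2.40 ± 0.26 with schisandrin B (3.98e-05) and was still called above normal, by 1.90 ± 0.31 (0.00317). Bcl2l11, which encodes the death factor BIM, fell by 0.77 ± 0.26 in fibrosis (0.0290) and rose by 1.21 ± 0.26 with schisandrin B (0.00262). The fall was not called with library totals or without any 1 of normal replicates 2 and 3 and fibrosis replicates 1 and 3. Of 5 tested genes for other tissue and secreted targets 3 rose and 0 fell in fibrosis, and 4 fell and 0 rose with schisandrin B. Of 17 genes of the ATF6 and XBP1 arm, the chaperone branch of the unfolded protein response, 12 rose and 0 fell in fibrosis, and 13 fell and 0 rose with schisandrin B.

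Lists that share single members with other stress inputs were read beside these. Of 9 glucocorticoid and hypoxia responders, the inputs known for Ddit4, 5 rose and 2 fell in fibrosis (1 fell with library totals), and 1 rose and 3 fell with schisandrin B. Of 8 p53 responders 7 rose and 0 fell, and then 8 fell and 0 rose. Of 8 immediate early genes, the quick responders to stimulation with which Atf3 is often grouped, 1 rose and 0 fell in fibrosis, and 2 fell and 0 rose with schisandrin B. Of 12 family relatives of the members, such as the sestrins, 5 rose and 4 fell in fibrosis (8 and 2 with library totals, and 2 fell without normal replicate 3), and 3 rose and 4 fell with schisandrin B.

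The genes outside the 10 whose profile over the 9 libraries was most like the mean of their standardized levels were March3, Il1rl1, Polr1a, Sec23b, Ficd, Polr1b, Ifrd1 and Yars, with Pearson's r from 0.989 to 0.996. The 9 libraries fall into groups that set this likeness, so it is a description only. Ficd, which modifies the chaperone BiP, was at 23.1 ± 1.84 CPM in normal, 214 ± 35.9 in fibrosis and 39.3 ± 4.07 in schisandrin B libraries (SD, n = 3). Sec23b, a coat subunit of vesicles that leave the endoplasmic reticulum, was at 45.1 ± 6.24, 202 ± 25.1 and 60.7 ± 8.52 CPM in the same order. Polr1a and Polr1b encode the main subunits of RNA polymerase I, and Yars is 1 of the tRNA synthetase genes above.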

How the data were processed

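RNA of 9 rat liver libraries was sequenced on the Ion Proton platform, per the labels' protocols. The deposited table holds raw counts per gene symbol, without normalization. The aligner is not given in the sources used here, nor is the counting tool. The submitters' processing notes name GRCm38, a mouse build, and the labels list mouse as organism, but the strain is a rat and the symbols are rat symbols, and genes are therefore reported without rat positions. Libraries summed to 10320299 to 16255167 counts, and 3 counts, the limit that a count of 0 allows, correspond to 0.176 to 0.286 CPM. Counting intervals cover counting error only.

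Counts were filtered with filterByExpr and scaled by TMM in edgeR 4.0.16 (R 4.3.3). A robust quasi-likelihood model was fitted to all 9 libraries with 1 mean per group, and 3 contrasts were tested, with Benjamini-Hochberg adjustment over 14581 genes. Errors of fold changes are SEs and intervals are 95%, on the log2 scale. Replicates were numbered in order of deposit. The labels do not say that they come from separate animals, so a p-value here reflects only how much these libraries vary, which may be technical. Alternatives were DESeq2 1.42.0 size factors and test, limma 3.58.1 voom, upper-quartile factors, library totals, other filters, thresholds and samples, and omission of each library. The script was tested on simulated counts with 200 planted changes.

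The members, the lists and the rules were chosen with earlier results of these data known. Named were the 10 members, up to 4 called genes with the lowest adjusted p per list and comparison, and the 8 genes most like the members (mean of at least 5 CPM in a group, log2 CPM with a prior count of 2). Sesn3, Cebpa and Eprs were named outside this rule, after their values were seen. Python 3.11.15 and matplotlib 3.10.9 were used for tables and figures.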

Additional observations from a re-analysis of the deposited data

How the results depend on the processing

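The number of members called ranged from 8 to 10 in fibrosis against normal, from 7 to 9 in schisandrin B against fibrosis and was 0 throughout in schisandrin B against normal, over all alternatives run. Among 510 alternative values of the members' fold changes, 484 kept their direction and side of the threshold, 10 lost a call, 5 gained one and 11 changed sign, all of the last without a call in either fit. These were Ddit4 in schisandrin B against fibrosis, at -0.14 with library totals and -0.19 to 0.29 without single libraries (lowest without schisandrin B replicate 1), and 4 genes in schisandrin B against normal. Atf5 was at 0.088 with library totals and -0.27 to 0.16 without single libraries, above 0 without normal replicate 1 or schisandrin B replicate 3 (0.013). Atf3 was at 0.066 with library totals and -0.88 to 0.96 without single libraries, above 0 without normal replicate 3 or schisandrin B replicate 3 (0.30). Trib3 ranged from -0.11 to 0.31 and was below 0 without normal replicate 1 or schisandrin B replicate 1 (-0.091). Ppp1r15a ranged from -0.083, without normal replicate 1, to 0.35. The cause was not tested. Of 2040 alternative list counts 226 moved by over 1.5 times, many of them counts of 3 or fewer. The motif TGATGNAA was found in 4 member genes where TGATGCAA was found in 2, by construction. No paired analysis was possible because the replicate numbers follow the order of deposit and pair no samples. Over all genes, schisandrin B against normal gave 1531 calls, 2954 in the fit on only those 2 groups, 2782 without fibrosis replicate 1, and 703 to 992 without any 1 normal or schisandrin B library. A prior count of 0.5 in place of 2 left the size of the ratios to Atf4 within 1 SD, but the Ddit4 libraries of fibrosis and normal then overlapped. Ddit4 had 31 to 141 counts per library, and Asns 6 to 36 outside the fibrosis group.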
